A study of Danio rerio with 32 samples.

Results

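The globin genes make the protein chains of hemoglobin, and 7 of them were followed here across the 8 groups of a study of Keap1, Nrf2 and Bach1 in zebrafish larvae. Members were chosen by name: every gene row whose Entrez gene ID maps to a zebrafish symbol beginning with hbaa, hbae, hbba or hbbe, because globins are among the genes that Bach1 is known to repress. This gave 7 of the 16825 rows of the count table, and of the 16039 rows with an Entrez ID. They are the embryonic alpha globins hbae3 (ID 30601), hbae1.3 (100334599) and hbae1.1 (30597), and the embryonic beta globins hbbe1.3 (573653), hbbe1.2 (793447), hbbe1.1 (81538) and hbbe2 (405772). All 7 passed the filter on low counts. The rule itself used no measured value, although it was set with earlier results of these data known. RefSeq lists 15 genes under these prefixes, and the other 8, among them the adult globins hbaa1, hbaa2, hbba1 and hbba2, were not analysed here. In the RefSeq gene order, 11 of the 15 lie in a cluster on chromosome 3 and 4 in a cluster on chromosome 12, each with 2 other genes between them. Of the members, hbbe2 is on chromosome 12, and the other 6 are on chromosome 3 in the order hbbe1.1, hbae1.1, hbbe1.2, hbbe1.3, hbae1.3 and hbae3. No coordinates are given because the reference assembly (GRCz12tu) differs from the assembly of the counts (GRCz11).

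Hemoglobin is a tetramer of alpha-type and beta-type chains that each carry a heme group, and vertebrates switch from embryonic to adult chains during development. Red blood cells of young zebrafish larvae arise mainly in the embryonic wave of blood formation and carry embryonic globins. In mammals, Bach1 pairs with small Maf proteins and represses globin genes and heme oxygenase through Maf recognition elements, and heme releases it. Nrf2 and the erythroid factor NF-E2 belong to the same family as Bach1, share the small Maf partners and activate through closely related elements. Keap1 holds Nrf2 in check by directing its degradation.

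RNA was sequenced from 32 pools of whole larvae at 7 days post fertilization (dpf), each of 10 larvae, with a 3′ end kit (QuantSeq). There were 8 groups of 4 pools. The WT larvae were the common control, and crkeap1a, crkeap1b and crkeap1a/b larvae had been injected at the one-cell stage with Cas9 and guides against keap1a, keap1b or both, so that their edits were mosaic. Bach1 DKO larvae came from a line with knockout alleles of bach1a and bach1b (uom301) and Nrf2 KO larvae from the nfe2l2 fh318 line, and both lines were also profiled after injection of the keap1a and keap1b guides, as Bach1 DKO crkeap1a/b larvae in the former and Nrf2 KO crkeap1a/b larvae in the latter case. The Bach1 line was made on a background that carries a gstp1:EGFP reporter and a liver mCherry reporter, and the study first made its crispants in a gstp1:EGFP line, but whether the other sequenced pools carried a reporter is not given in the sources used here. The study's methods name clutch siblings as the controls of all experiments, whereas the labels tie no pool to a clutch, date or batch. In every comparison of a mutant line with the WT background, mutation, genetic background and batch effects thus cannot be told apart. Within a background, the labels likewise do not separate keap1a or keap1b editing from a clutch or batch. Whether the WT, Bach1 DKO and Nrf2 KO pools had a control injection is not given in these sources either. A part of the injection itself was thus not tested. Pools are separate samples by their labels, and p-values measure the spread between such pools. The comparisons with WT share the same 4 WT pools.

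Total counts per library were 3464165 to 4712448, and counts in rows with an Entrez ID were 1976901 to 2804487. The globins took 0.037% to 0.417% of the latter, or 774 to 10649 counts per library. Levels are given in CPM, counts scaled to a common library size after TMM normalization. The detection floor was set at 3 counts, which equalled 1.07 to 1.518 CPM by library totals, without the TMM factor. One read stands for one transcript end in this assay, so levels of different globins were compared without correction for gene length. The copies resemble each other closely and how reads that match several copies were counted is not given in the sources used here, so the split between copies is uncertain, more so than their sum. In RNA from whole larvae, fewer red cells and less globin RNA per red cell cannot be told apart. Counts come from transcript ends, whereas the edits alter coding sequence, so that counts of the edited genes are no check of the labels. Mean levels were 11.5 CPM in WT and 6.41 CPM in Bach1 DKO larvae for bach1a, 21.5 and 44.4 CPM for bach1b, and 423 CPM in WT and 307 CPM in Nrf2 KO larvae for nfe2l2a. They were 16.6 CPM in WT and 43.7 CPM in crkeap1a/b larvae for keap1a, and 33.1 and 38.1 CPM for keap1b (n = 4 each). A further 5 libraries stood apart from the rest, crkeap1a replicates 2 and 3 and crkeap1b replicates 1, 3 and 4. Their TMM factors were 0.601 to 0.818 against 0.947 to 1.211 in the other 27, their summed skeletal muscle markers 34832 to 66507 CPM against 8763 to 34479.6 CPM, and their summed globin level 2788 to 6934 CPM against 351 to 2789.9 CPM. All libraries share 1 estimate of the spread, so these 5 bear on every comparison, and leaving them out also changed the scaling and the rows tested (15357 in place of 14108). Counts of called globins without them are given with each comparison in which they differed.

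In WT larvae the summed level of the 7 globins was 1975 ± 228 CPM (SD, n = 4), with pools at 1959, 1924, 1734 and 2283 CPM. The most abundant member was the alpha globin hbae3, with 39.9% ± 3.14 of the globin signal, followed by the beta globin hbbe1.3 with 22.7% ± 2.91, hbae1.3 with 17.2% ± 2.57 and hbae1.1 with 10.2% ± 1.02 (SD, n = 4). The beta globins hbbe1.1, hbbe2 and hbbe1.2 each contributed a mean of 2.62% to 4.50%. Across groups, the mean sum fell in the order crkeap1b (4661 ± 2046 CPM), crkeap1a (2992 ± 1055), Bach1 DKO crkeap1a/b (2068 ± 248), WT, crkeap1a/b (1357 ± 249.6), Bach1 DKO (1159.6 ± 148), Nrf2 KO crkeap1a/b (748 ± 155) and Nrf2 KO (563 ± 147; SD, n = 4 each). Neighbouring groups in this order overlapped in their pools, with 2 exceptions. The WT pools, at 1734 to 2283 CPM, all lay above the crkeap1a/b pools, at 1017 to 1586 CPM, and the Bach1 DKO pools, at 1002 to 1352 CPM, all lay above the Nrf2 KO crkeap1a/b pools, at 523 to 879 CPM.

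**Figure D1:**
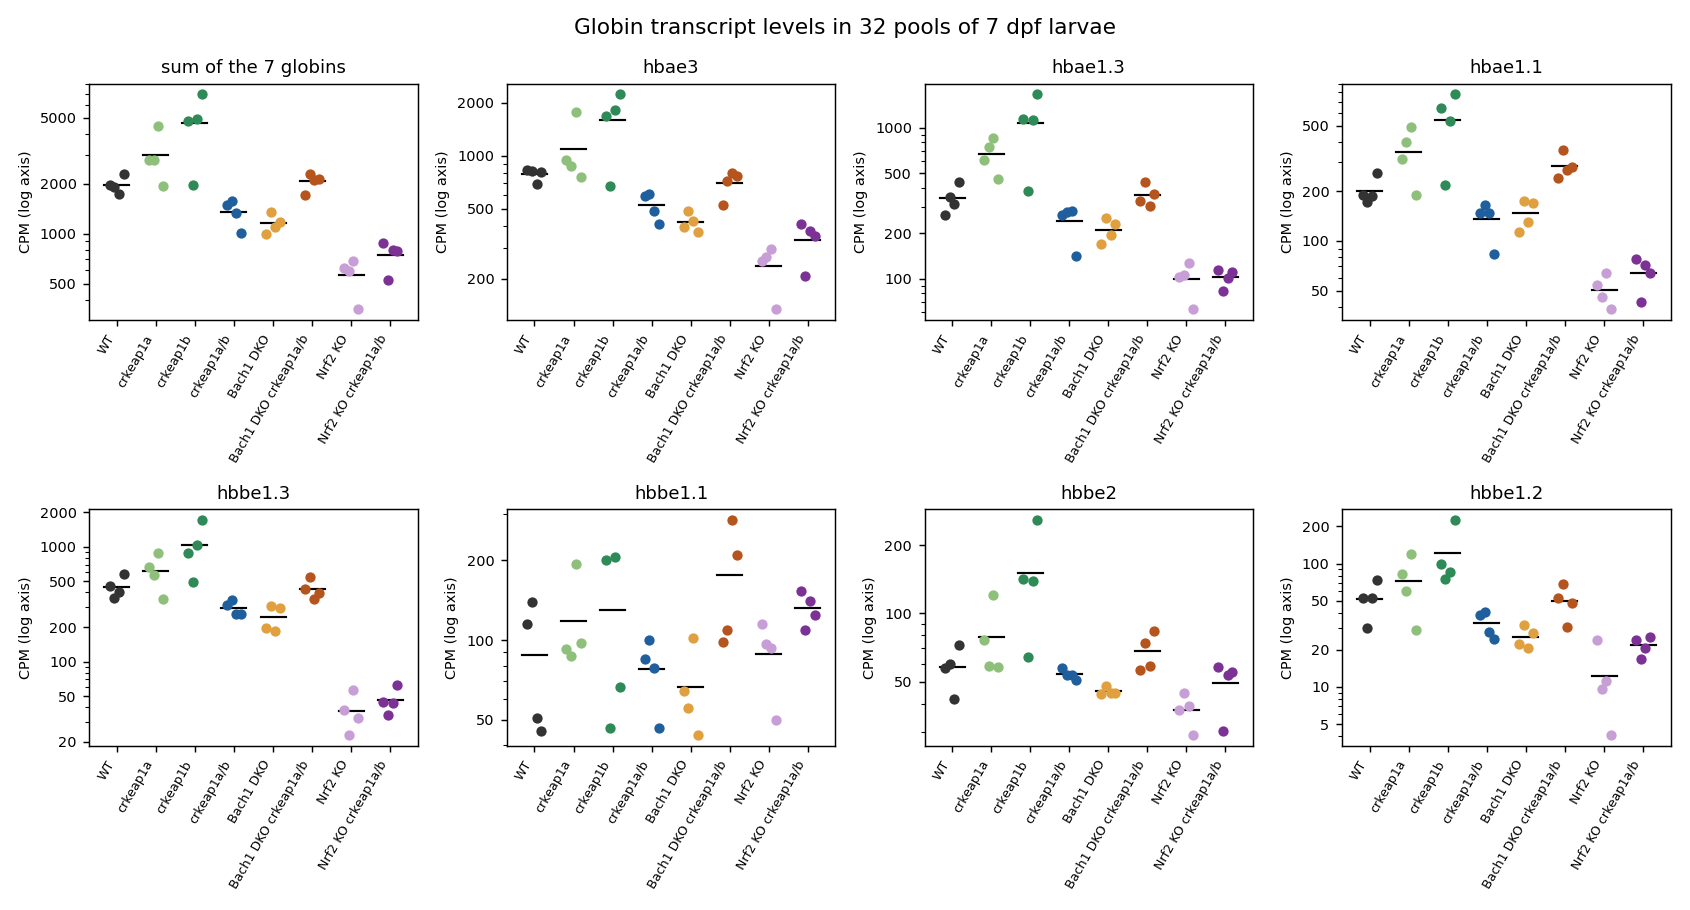
Levels (CPM, log axes that differ between panels) of the summed globins and of each of the 7 globins in 32 pools, with 1 point per pool and a bar at the mean of the 4 pools of a group. The Nrf2 KO pools lie below all WT pools for the sum, hbae3, hbae1.3, hbae1.1, hbbe1.3 and hbbe1.2, whereas hbbe1.1 spans 45.1 to 139.6 CPM in WT and 49.9 to 115 CPM in Nrf2 KO larvae.

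The first comparison asked what the globins do in the Nrf2 KO line. Globin transcripts were lower in Nrf2 KO than in WT larvae, by 3.51-fold for the sum, and the difference was uneven: the mean of hbbe1.3 was 12.1-fold lower and that of hbbe1.1 was 1.01 times that of WT. Levels of hbbe1.3, the most abundant beta globin in WT larvae, were 458, 359, 401 and 584 CPM in WT and 37.6, 23.0, 56.5 and 32.2 CPM in Nrf2 KO larvae. The lowest WT pool was thus far above the highest Nrf2 KO pool. The log2 fold change was −3.63 ± 0.30 (SE, limma-voom adjusted p = 5.12e-11). Levels of the main alpha globin, hbae3, were 825, 816, 687 and 813 CPM in WT and 251, 267, 295 and 134 CPM in Nrf2 KO larvae (log2 fold change −1.78 ± 0.26, adjusted p = 5.74e-06), again without overlap. For hbae1.1 the WT pools were at 189, 173, 187 and 257 CPM and the Nrf2 KO pools at 54.0, 45.9, 64.0 and 38.6 CPM (−2.0 ± 0.29, adjusted p = 5.45e-06). The alpha globin hbae1.3 changed from 263, 346, 314 and 438 CPM to 103, 106, 127 and 63.1 CPM (−1.79 ± 0.27, adjusted p = 1.14e-05). The 3 alpha globins thus had log2 fold changes between −2.0 and −1.78. The minor beta globin hbbe1.2 was at 52.4, 30, 52.2 and 73.6 CPM in WT and at 24.1, 9.69, 11.2 and 4.09 CPM in Nrf2 KO larvae, where it rested on 50, 19, 24 and 9 counts (−2.27 ± 0.48, adjusted p = 0.000862).

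The remaining pair of beta globins did not pass the test in Nrf2 KO larvae when all libraries were fitted together. The chromosome 12 gene hbbe2 was at 57.6, 60, 41.7 and 72.2 CPM in WT and 37.6, 44.4, 39.2 and 29.1 CPM in Nrf2 KO larvae, and the groups overlapped in 1 Nrf2 KO pool (log2 fold change −0.61 ± 0.28, adjusted p = 0.141). Levels of hbbe1.1, the first embryonic beta globin of the chromosome 3 order, were 115, 139.6, 50.7 and 45.1 CPM in WT and 115, 96.4, 93.4 and 49.9 CPM in Nrf2 KO larvae. The WT pools fell into a high and a low pair, and the Nrf2 KO pools lay within their range (0.13 ± 0.39, adjusted p = 0.876). In all, 5 of the 7 globins were lower and 0 higher at an adjusted p under 0.05, where 15.9% of all 14108 tested rows changed and 7.48% were lower. The same 5 had no overlap between the pools of the groups, a pattern that 10.1% of all rows showed in this direction. The median globin log2 fold change was −1.79, and that of all rows was 0.01. Leaving out any 1 of the 8 pools left the count at 5. It was 6 without the 5 libraries that stood apart, where hbbe2 was also called (−0.62, adjusted p = 0.0117) and 21.8% of all rows were, and 6 with the 2 compared groups alone or with library totals alone. Of 6 skeletal muscle markers tested, 4 rose in the same comparison, and their summed level was 19697 to 23609 CPM in WT and 29772 to 33273 CPM in Nrf2 KO pools. The part of this in the globin difference was not tested.

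Injection against keap1a and keap1b in the Nrf2 line gave no called change of a globin when all libraries were fitted together. Sums in Nrf2 KO crkeap1a/b larvae were 879, 523, 801 and 790.4 CPM, against 623, 592, 686 and 351 CPM in Nrf2 KO larvae, and the groups overlapped. All 7 log2 fold changes were above 0, from 0.07 for hbae1.3 to 1.07 for hbbe1.2, but 0 passed the test, with a smallest adjusted p of 0.382. Of all rows, 0.822% were called in this comparison. At an unadjusted p under 0.05, 1 of the 7 was counted, and edgeR and DESeq2 each called 0. With the compared groups alone, limma-voom called hbbe1.1 higher (0.64 ± 0.18, adjusted p = 0.0409), where the rows called rose from 116 to 727.

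Set against crkeap1a/b larvae of the WT background, Nrf2 KO crkeap1a/b larvae had lower sums in every pool, by 1.81-fold in the mean, and 3 of 7 globins were called lower where 24.1% of all rows were called and 11% were lower. For hbbe1.3 the crkeap1a/b pools were at 309, 344, 260.1 and 262 CPM and the Nrf2 KO crkeap1a/b pools at 44.1, 34.5, 43.3 and 62.4 CPM, so that no pools overlapped (log2 fold change −2.69 ± 0.28, adjusted p = 2.96e-09). The alpha globins hbae1.1 (−1.08 ± 0.28, adjusted p = 0.00464) and hbae1.3 (−1.18 ± 0.27, adjusted p = 0.00125) were the others called. For hbae3 the log2 fold change was −0.68 ± 0.26 (adjusted p = 0.0542). In contrast, hbbe1.1 was at 153, 109, 141 and 124 CPM in Nrf2 KO crkeap1a/b pools, all above the crkeap1a/b pools at 84.7, 100.2, 78.1 and 46.4 CPM (0.81 ± 0.39, adjusted p = 0.124). Without the 5 libraries that stood apart, 5 globins were called, hbbe1.1 as higher among them (0.78, adjusted p = 0.0466), where 30.6% of all rows were called. The pools of 3 members (hbbe1.3, hbae1.1 and hbae1.3) lay wholly below and those of 1 (hbbe1.1) wholly above, patterns shown by 14.7% and 15.4% of all rows. All 6 muscle markers were higher here, with sums of 27147 to 34479.6 CPM against 13455 to 17959 CPM.

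The beta globin with the higher level differed between the Nrf2 line and the other groups. The ratio of hbbe1.1 to hbbe1.3 was 0.211 ± 0.139 in WT, 2.62 ± 1.26 in Nrf2 KO and 2.96 ± 0.666 in Nrf2 KO crkeap1a/b larvae (SD, n = 4 each). Each of the 8 pools of the Nrf2 line had a ratio of 1.55 or more, and each of the 24 other pools 0.805 or less. Because hbbe1.1 and hbbe1.3 are close copies, these ratios depend on reads being assigned to the right copy, and a sequence difference between lines at the 3′ ends was not tested. The ratio of hbbe1.2 to hbbe1.3 also moved, from 0.114 ± 0.021 in WT to 0.347 ± 0.233 in Nrf2 KO and 0.479 ± 0.0549 in Nrf2 KO crkeap1a/b larvae, although 1 Nrf2 KO pool, at 0.127, lay within the WT range of 0.0836 to 0.13. In the 6 groups without the Nrf2 mutation its group means were 0.105 to 0.119. The ratio of hbae1.1 to hbae1.3 stayed closer, at 0.6 ± 0.09 in WT and 0.518 ± 0.073 in Nrf2 KO larvae.

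**Figure D2:**
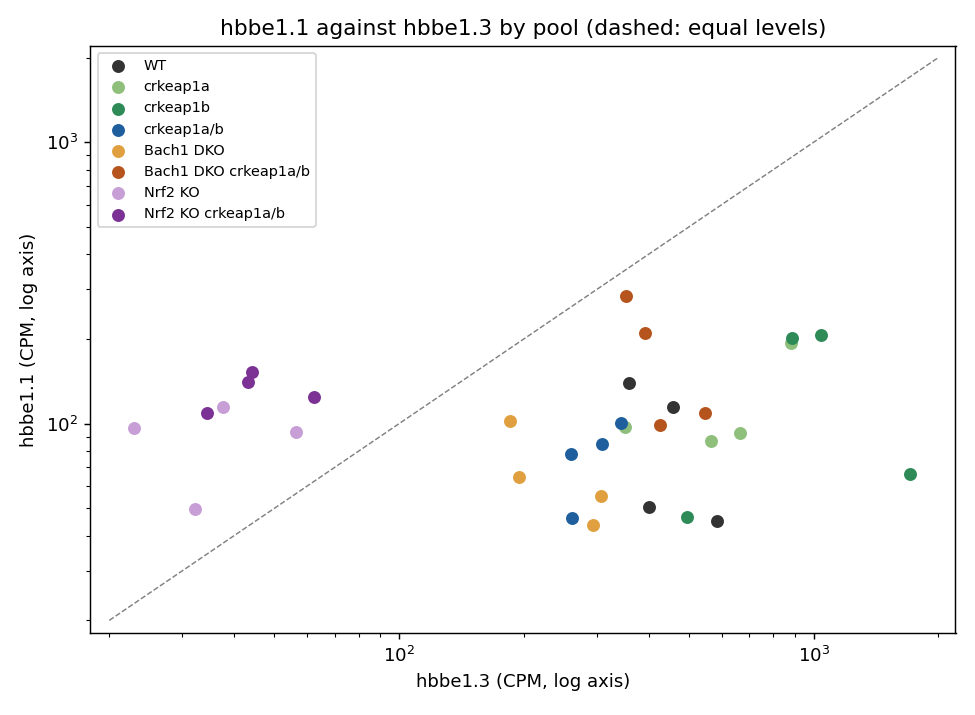
Level of hbbe1.1 against hbbe1.3 (CPM, log axes) with 1 point per pool, coloured by group, and a dashed line where both are equal. The 8 pools of the Nrf2 line lie above the line, at hbbe1.3 levels of 23.0 to 62.4 CPM, and the 24 other pools below it.

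The next comparison asked whether globins rise when Bach1, their repressor in mammals, is lost. In Bach1 DKO larvae 0 of 7 were called higher and 3 of 7 were called lower than in WT, where 23.4% of all rows were called and 11.6% were lower. The sum was 1.7-fold lower, with Bach1 DKO pools at 1002, 1352, 1103 and 1181 CPM, below every WT pool. Levels of hbae3 were 394, 484, 425 and 369.7 CPM in Bach1 DKO larvae against 687 to 825 CPM in WT, with no overlap (log2 fold change −0.91 ± 0.26, adjusted p = 0.0111). Levels of hbbe1.3 were 195, 307, 185 and 294 CPM, below the WT pools at 359 to 584 CPM (−0.89 ± 0.25, adjusted p = 0.0101). The minor beta globin hbbe1.2, at 22.3, 31.6, 20.5 and 27.5 CPM, overlapped with WT in 1 pool and was at the threshold (−0.97 ± 0.37, adjusted p = 0.05 after rounding and just below it before). It lost the call when any of 7 of the 8 pools was left out. The other 4 had log2 fold changes from −0.68 to −0.30, with adjusted p-values from 0.0603 to 0.63. Pools of 3 members (hbbe1.3, hbae3 and hbae1.3) did not overlap with WT, against 14% of all rows in this direction. Without the 5 libraries that stood apart, which belong to neither group, 5 globins were called lower and 29.3% of all rows were called. Muscle markers were at 25093 to 32473 CPM in Bach1 DKO pools, with 2 of 6 higher than in WT.

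Globins rose with keap1a/b editing in the Bach1 line. The sum increased 1.78-fold, from 1159.6 ± 148 CPM in Bach1 DKO to 2068 ± 248 CPM in Bach1 DKO crkeap1a/b larvae (SD, n = 4), and the pools of the latter, at 1720.3, 2307, 2099 and 2145 CPM, all lay above the former. Of the 7 globins, 5 were called higher and 0 lower, where 25.4% of all rows were called and 13.7% were higher. Levels of hbae1.1 were 114, 175, 129.7 and 171 CPM in Bach1 DKO and 239.7, 356, 270 and 279.9 CPM in Bach1 DKO crkeap1a/b larvae, with no overlap (log2 fold change 0.96 ± 0.27, adjusted p = 0.00716). For hbae3 the Bach1 DKO crkeap1a/b pools were at 522, 720, 799.9 and 769 CPM, above the Bach1 DKO pools at 369.7 to 484 CPM (0.74 ± 0.26, adjusted p = 0.0362). For hbbe1.3 they were at 426, 548, 353 and 392 CPM, above 185 to 307 CPM (0.82 ± 0.25, adjusted p = 0.0153). The alpha globin hbae1.3 moved likewise (0.75 ± 0.27, adjusted p = 0.0343). For hbbe1.1 the increase was largest in 2 pools: the Bach1 DKO crkeap1a/b larvae were at 98.7, 109, 284 and 210.2 CPM and the Bach1 DKO larvae at 64.4, 55.3, 102 and 43.8 CPM, which overlap (1.33 ± 0.39, adjusted p = 0.011). Leaving out each pool gave log2 fold changes of 1.07 to 1.58, and 1 of the 8 omissions cost the call. The minor beta globins hbbe1.2 (0.93 ± 0.37, adjusted p = 0.0601) and hbbe2 (0.56 ± 0.27, adjusted p = 0.12) were not called. All 7 were called higher without the 5 libraries that stood apart, hbbe1.2 (0.94, adjusted p = 0.0137) and hbbe2 (0.57, adjusted p = 0.00835) among them, where 31.4% of all rows were called. The count was also 7 with the 2 compared groups alone, with quality weights and with library totals alone. Pools of 5 members did not overlap (hbbe1.3, hbae3, hbae1.1, hbae1.3 and hbbe2), against 17.1% of all rows in this direction. Leaving out any of 6 of the 8 pools cost hbae3 its call, and any of 4 of the 8 cost hbae1.3 its call. The count of 5 fell to 2 without Bach1 DKO replicate 3 or Bach1 DKO crkeap1a/b replicate 2, and to 3 without Bach1 DKO replicate 1 or Bach1 DKO crkeap1a/b replicate 4. In the same comparison all 6 skeletal muscle markers tested fell (median log2 fold change −1.33). Their summed level was 25093 to 32473 CPM in Bach1 DKO and 8763 to 12371 CPM in Bach1 DKO crkeap1a/b pools, and the part of this in the globin change was not tested.

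In the WT background the same injection left globins lower in sign. Sums in crkeap1a/b larvae were 1493, 1586, 1333 and 1017 CPM, all below the WT pools and 1.46-fold lower in the mean. All 7 log2 fold changes were negative, with a median of −0.60 against −0.02 for all rows, but 0 of 7 passed the test (smallest adjusted p = 0.189), where 5.29% of all rows did. Those of hbbe1.1 (−0.06) and hbbe2 (−0.08) turned to 0.05 and 0.03 when libraries were scaled by their totals alone. Levels of hbae3 were 593, 608, 487 and 409 CPM, all below WT (−0.60 ± 0.27, adjusted p = 0.214), and levels of hbae1.1 were 147, 166, 148 and 83.2 CPM, also all below WT (−0.60 ± 0.27, adjusted p = 0.213). With hbbe1.3 these were the 3 members without overlap, against 6.32% of all rows in this direction. At an unadjusted p under 0.05, 3 of 7 were counted, and edgeR and DESeq2 each called 0. The spread in this model is shared with the single crispants, whose within-group SD of log2 levels, pooled over rows, was 0.516 and 0.560. This was above the pooled SD of the other groups (0.326 to 0.402). Without the 5 libraries that stood apart, 4 globins were called lower, hbbe1.3 (−0.59, adjusted p = 0.0205), hbae3 (−0.58, adjusted p = 0.0128), hbae1.1 (−0.58, adjusted p = 0.0283) and hbae1.3 (−0.52, adjusted p = 0.0433), where 10.4% of all rows were called.

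The interaction of injection and line compared both responses directly. Relative to the response in the WT background, the response to keap1a/b editing was higher in the Bach1 line for hbae1.1 (difference of log2 fold changes 1.56 ± 0.38, adjusted p = 0.0169), hbbe1.3 (1.43 ± 0.36, adjusted p = 0.0232) and hbae3 (1.33 ± 0.38, adjusted p = 0.0431). These 3 of 7 stood beside 2.75% of all rows called and 1.49% higher. The other 4 differences were also positive, from 0.64 for hbbe2 to 1.55 for hbbe1.2, with adjusted p-values from 0.0535 to 0.384. For hbae3 the call was lost without any 1 of 11 of the 16 pools. The count of 3 fell to 0 without crkeap1a/b replicate 4, whose hbae1.3 and hbae1.1 were the lowest of its group, and to 1 without Bach1 DKO replicate 1, Bach1 DKO replicate 3 or Bach1 DKO crkeap1a/b replicate 2. It was 6 without the 5 libraries that stood apart, where 7.43% of all rows were called. In the Nrf2 line the 7 differences had a median of 0.92 and 0 were called, where 1.16% of all rows were. At an unadjusted p under 0.05, 4 were counted, and edgeR and DESeq2 each called 0. A fit without the 5 libraries called 1, hbae3 (1.09, adjusted p = 0.00678), where 3.44% of all rows were. Both interactions use the same WT and crkeap1a/b pools, and the difference between them was not tested.

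Compared with crkeap1a/b larvae of the WT background, Bach1 DKO crkeap1a/b larvae had sums 1.52-fold higher, with no overlap. Called higher were 2 of 7, hbae1.1 (log2 fold change 1.1 ± 0.27, adjusted p = 0.00188) and hbbe1.1 (1.09 ± 0.38, adjusted p = 0.0274), where 29.9% of all rows were called and 15.9% were higher. The share of members called was near that of all rows. Pools of 3 members, hbbe1.3, hbae1.1 and hbae1.3, did not overlap, against 17.4% of all rows in this direction. The count fell to 1 without crkeap1a/b replicate 4 or Bach1 DKO crkeap1a/b replicate 3 or 4, and rose to 5 without the 5 libraries that stood apart, where 35.8% of all rows were called. Of the 6 muscle markers, 5 were lower here.

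**Figure D3:**
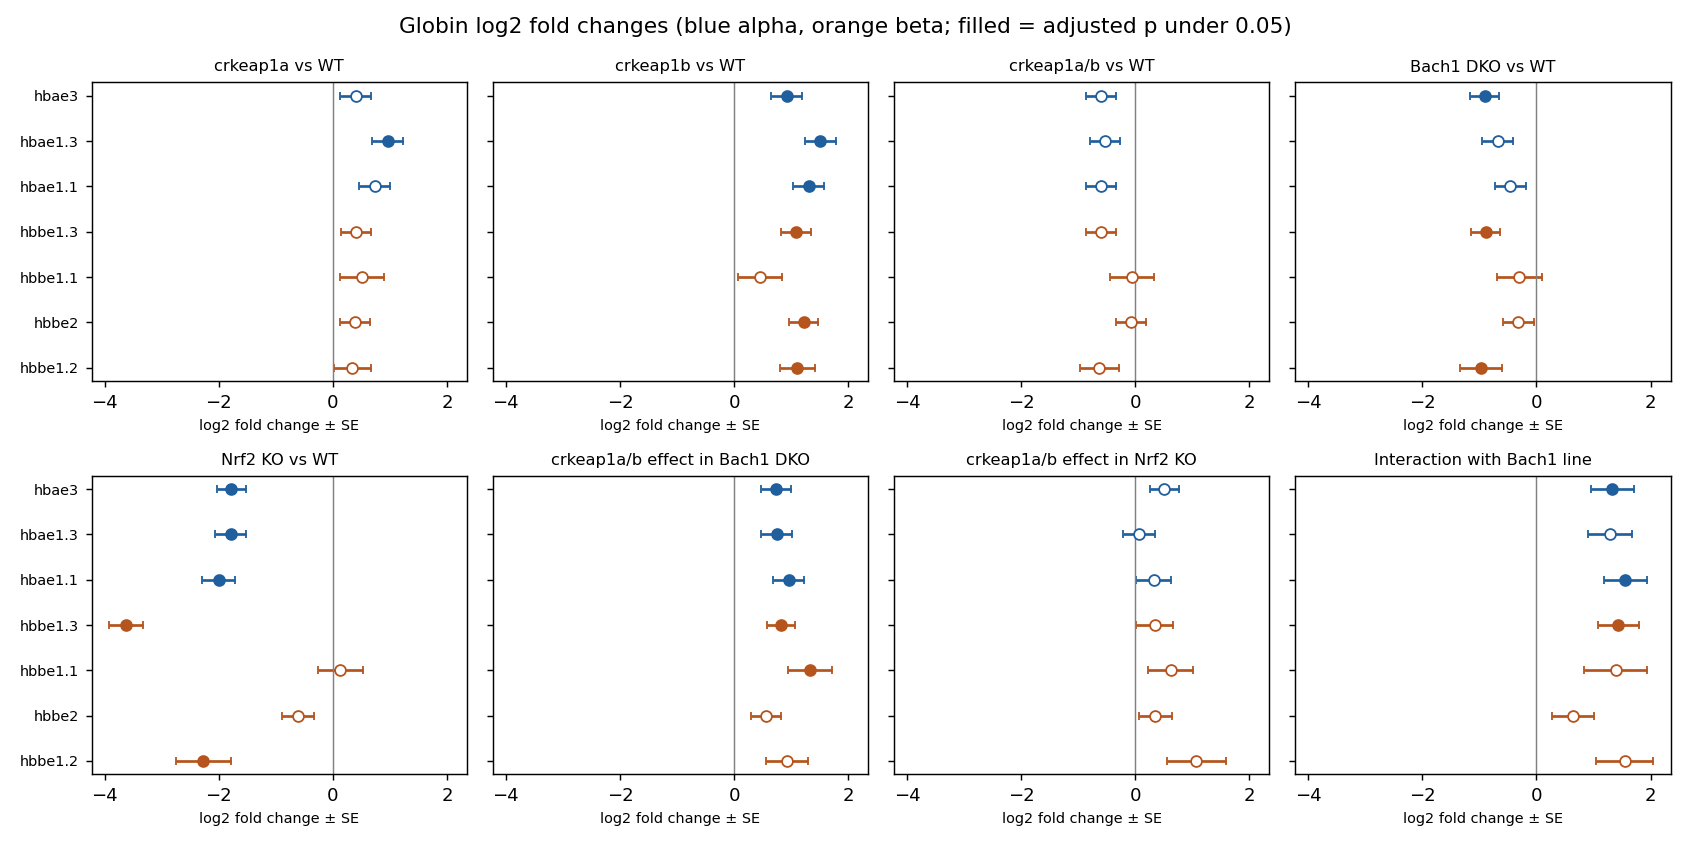
Log2 fold changes of the 7 globins (alpha in blue, beta in orange; points with SE bars, filled where the adjusted p was under 0.05) in 8 comparisons of groups of 4 pools, with 0 marked by a line. For Nrf2 KO against WT hbbe1.3 lies at −3.63 and hbbe1.1 at 0.13, and the values for keap1a/b editing lie below 0 in the WT background and above 0 in the Bach1 line.

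The single crispants had the highest mean globin levels, and 4 of their 5 libraries that stood apart had sums above every other pool. Sums were 2789.9, 2788, 4454 and 1934 CPM in crkeap1a and 4793, 1961, 4955 and 6934 CPM in crkeap1b larvae, against 1734 to 2283 CPM in WT. In crkeap1b larvae 6 of 7 globins were called higher, where 18.1% of all rows were called and 9.85% were higher, with a median globin log2 fold change of 1.11. The alpha globin hbae1.3 led, at 1135, 383, 1125 and 1659 CPM against 263 to 438 CPM in WT (1.51 ± 0.27, adjusted p = 0.000303), and replicate 2 lay within the WT range. The beta globin hbbe2 was at 142, 63.9, 139 and 258 CPM (1.22 ± 0.25, adjusted p = 0.00106), and hbbe1.3 was at 885, 496, 1042 and 1709 CPM (1.09 ± 0.26, adjusted p = 0.00375). Pools of 1 member, hbbe1.2, did not overlap with WT, against 5.98% of all rows in this direction. In crkeap1a larvae 1 of 7 was called, where 13.2% of all rows were called and 6.24% were higher: hbae1.3, at 613, 741, 859.6 and 455 CPM, all above WT (0.96 ± 0.27, adjusted p = 0.0172). It was also the 1 member without overlap, against 6.37% of all rows in this direction. Without WT replicate 1, crkeap1a replicate 2 or crkeap1a replicate 3, 0 were called, and without crkeap1a replicate 4, 2 were.

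Without the 5 libraries that stood apart, 0 of 7 globins were called in either single crispant, where 2.04% of all rows were called for crkeap1a and 0.436% for crkeap1b. That left crkeap1a with 2 pools and crkeap1b with 1, whose spread was taken from the other groups. The pools with the highest globin sums were among the 5. Leaving them out thus lowers the globin means of both groups by itself and is no separate test. The sum of crkeap1b relative to WT was then −0.01 on the log2 scale, against 1.24 with all pools. The values of hbae3 and hbbe1.1 turned to −0.21 and −0.73. The 3 single-crispant pools that did not stand apart had sums of 1934 to 2789.9 CPM and summed muscle markers of 25102 to 30967 CPM, and the WT pools had muscle markers of 19697 to 23609 CPM. Of the 6 muscle markers, 4 were called higher in each single crispant with all pools, and 4 without the 5 libraries. Summed hepatocyte markers were 3339.7 to 7165 CPM in crkeap1a and 3472 to 9492 CPM in crkeap1b pools, against 2977 to 4261 CPM in WT. Of these 10 markers, 1 was called higher and 0 lower in each single crispant with all pools. The part of muscle content, liver content or library composition in the globin difference was not tested.

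**Figure D4:**
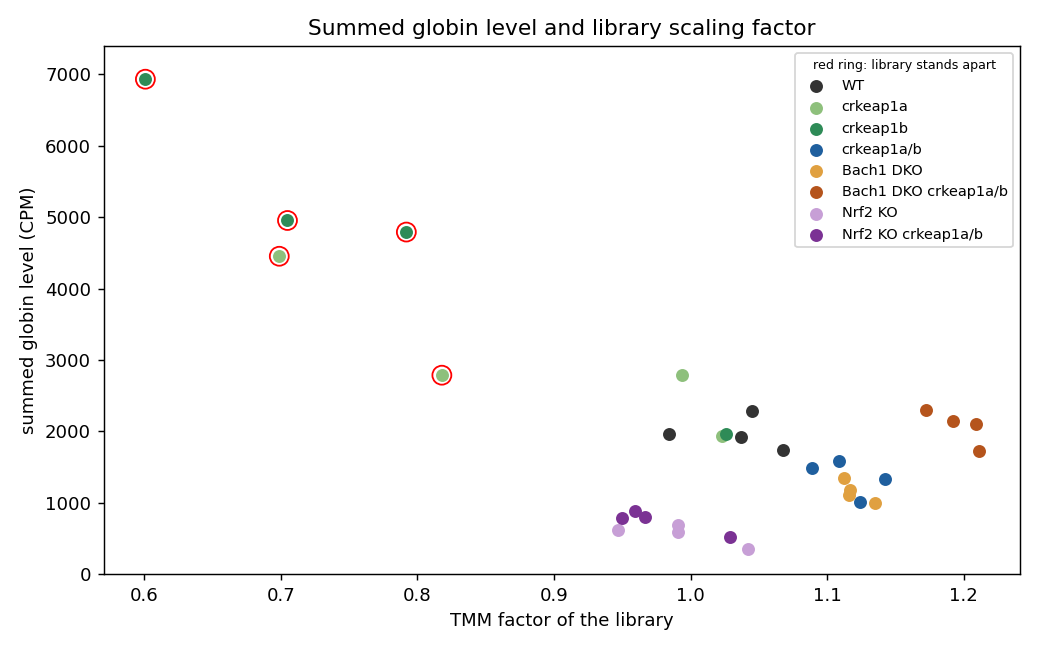
Summed globin level (CPM) against the TMM scaling factor of each library, 1 point per pool, coloured by group, with red rings on the 5 libraries that stood apart. The ringed pools have factors of 0.601 to 0.818 and sums of 2788 to 6934 CPM, and no other pool exceeds 2789.9 CPM.

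Alpha and beta globins moved together. The ratio of summed alpha to summed beta levels was 2.07 ± 0.188 in WT (SD, n = 4), and the group means ran from 1.86 in Bach1 DKO crkeap1a/b to 2.42 in crkeap1a larvae while the group means of the sum ran from 563 to 4661 CPM. In Nrf2 KO larvae it was 2.2 ± 0.265. Within this near-constant ratio the makeup of the beta side differed by line: hbbe1.3 made up 6.83% ± 2.37 and 6.23% ± 1.3 of the globin signal in Nrf2 KO and Nrf2 KO crkeap1a/b larvae, against group means of 20.5% to 22.7% elsewhere. Shares of hbbe1.1 were 13.6% to 20.8% in the 8 pools of the Nrf2 line and 0.958% to 13.5% in the other 24. Shares of hbbe2 were 6.88% ± 1.21 and 6.48% ± 0.518 in the Nrf2 line, against group means of 2.63% to 4.06% elsewhere. Over the 32 libraries, which share groups and normalization, log2 levels of the 6 members other than hbbe1.1 correlated pairwise with r from 0.73 to 0.97, and hbbe1.1 correlated with each of them with r from 0.03 to 0.33 (descriptions only). By deviations from the group means, the 6 correlated with r from 0.6 to 0.93. By that measure hbbe1.1 correlated with hbae3 with r = 0.62 and with each of the others with r from 0 to 0.34.

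**Figure D5:**
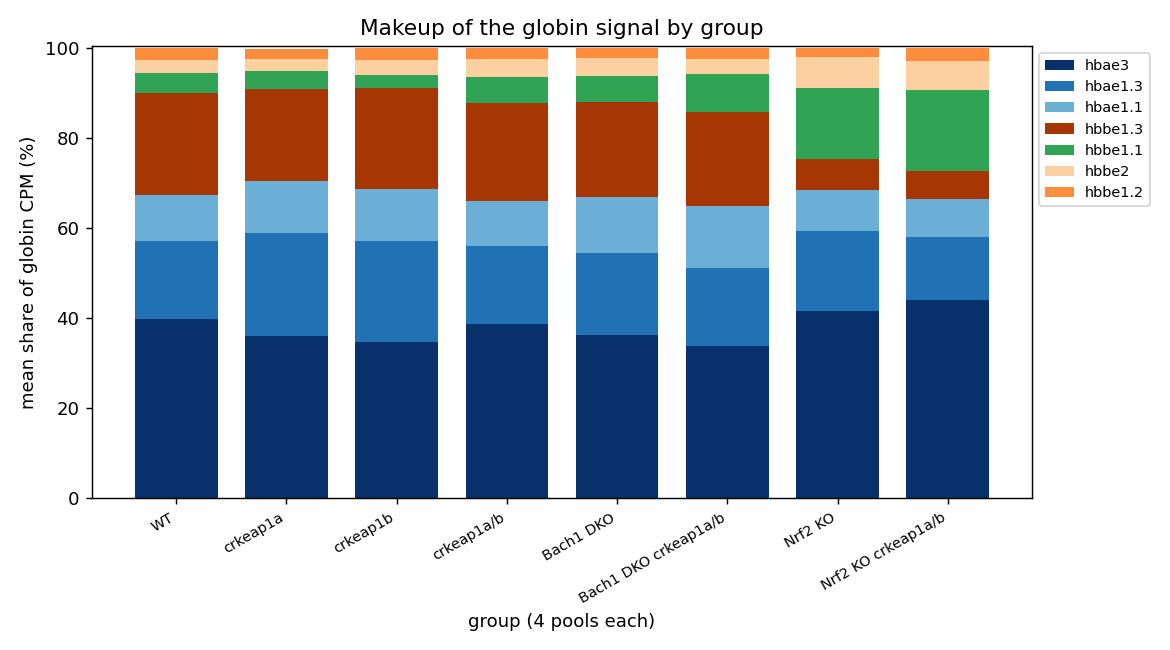
Mean share (%) of each globin in the summed globin CPM of a pool, stacked by group (means of 4 pools; alpha globins in blues at the bottom, beta globins above). The hbbe1.3 share is 6.83% in Nrf2 KO and 6.23% in Nrf2 KO crkeap1a/b larvae against 20.5% to 22.7% elsewhere, and hbbe1.1 takes 15.7% and 17.9% in these groups.

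Other red cell genes were followed from a list of 29 names, of which 22 had a row and 19 were tested. The erythroid factor gata1a and the erythroid heme synthesis enzyme alas2 were not analysed here. In Nrf2 KO larvae 1 of the 19 fell and 0 rose, where 15.9% of all rows were called and 7.48% were lower. The gene that fell was slc4a1a, the anion exchanger of the red cell membrane, at 18.2 ± 5.4 CPM in WT and 6.72 ± 2.72 CPM in Nrf2 KO larvae (SD, n = 4; log2 fold change −1.41 ± 0.36, adjusted p = 0.00557). The median log2 fold change of the list was 0.11, against −1.79 for the globins. Mean WT levels in the list ran from 1.29 CPM (klf1) to 531 CPM (prdx2). The part of tissues other than red cells in these levels was not tested. The factor klf1, which activates beta globin genes in mammals, was near the detection floor at 1.29 ± 0.963 CPM in WT and 2.67 ± 1.84 CPM in Nrf2 KO larvae (0.96 ± 0.60, adjusted p = 0.301). Of 21 red cell genes tested without the 5 libraries that stood apart, 1 rose and 3 fell in Nrf2 KO larvae, near the 21.8% of all rows called. Over the 32 libraries, the correlation of the 19 genes with the summed globins ran from r = −0.69 (sptb, a spectrin of the red cell membrane) to 0.84 (slc4a1a, 0.3 by deviations from the group means), and that of klf1 was −0.06 (descriptions).

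In Bach1 DKO larvae, where the globins were lower, 5 of the 19 red cell genes rose and 0 fell, beside 23.4% of all rows called. Of all 14108 rows, 1671 were called higher and 1635 lower. The red cell carbonic anhydrase gene cahz was at 16.9 ± 5.72 CPM against 4.2 ± 1.85 CPM in WT (SD, n = 4; log2 fold change 2.00 ± 0.34, adjusted p = 5.53e-05). The transferrin receptor gene tfr1a, which serves iron uptake, rose by 1.34 ± 0.31 on the log2 scale (adjusted p = 0.002). With injection in the Bach1 line, 11 rose and 2 fell, beside 25.4% of all rows. Among them were slc4a1a (1.97 ± 0.25, adjusted p = 1.21e-07), klf1 (1.48 ± 0.37, adjusted p = 0.00272) and blvrb, a biliverdin reductase gene, which went from 14.1 ± 3.29 to 102 ± 7.65 CPM (2.87 ± 0.19, adjusted p = 1.71e-14). In crkeap1a/b larvae of the WT background 1 rose, blvrb (0.93 ± 0.25, adjusted p = 0.0213), and 0 fell, beside 5.29% of all rows. The gene blvrb is also on the list of genes that Bach1 represses in mammals, so the lists are not separate. Without the 5 libraries that stood apart, 3 of 21 rose, beside 10.4% of all rows called. In the Bach1 interaction 2 of the 19 were called higher and 1 lower, beside 2.75% of all rows. Higher were blvrb (1.95) and slc4a1a (1.95 ± 0.36, adjusted p = 0.0012), in the same direction as the 3 globins called there. The gene ank1a went the other way (−0.77), at 81.2 ± 9.38 CPM in Bach1 DKO and 45.8 ± 4.19 CPM in Bach1 DKO crkeap1a/b larvae. In crkeap1b larvae slc4a1a was also higher (1.40 ± 0.24, adjusted p = 0.000154), with 5 of 19 called higher and 2 lower, beside 18.1% of all rows. Of 21 tested without the 5 libraries, 3 of which are from this group, 0 were called, beside 0.436% of all rows, and slc4a1a was at 0.99 (adjusted p = 0.2).

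Genes of heme synthesis and genes that Bach1 represses in mammals were followed in the same way, with no test of these lists against the globins. Of 14 heme synthesis genes tested, 3 rose in crkeap1a/b larvae of the WT background and 9 with injection in the Bach1 line, with 0 lower in both, beside 5.29% and 25.4% of all rows called. The first enzyme of the pathway, alas1, was at 229.7 ± 49.7 CPM in WT, 1485 ± 192 CPM in crkeap1a/b and 1633 ± 182 CPM in Bach1 DKO crkeap1a/b larvae (SD, n = 4). The later enzyme hmbsb rose only with injection in the Bach1 line, among these 2 responses (2.46 ± 0.28, adjusted p = 1.17e-08), and its interaction was 2.18 ± 0.42 (adjusted p = 0.0018). Of 12 tested genes known to be repressed by Bach1 in mammals, 9 rose in crkeap1a/b larvae, in which 0 of 7 globins did. Among the 9 was blvrb, which was counted with the red cell genes as well. The study states that Bach1 shares some of its targets with Nrf2, and reports Nrf2 activation in crkeap1a/b larvae. It also reports that Keap1 loss did not induce the Nrf2 program in the Nrf2 mutant. With injection in the Nrf2 line 1 of the 12 rose and 0 fell, beside 0.822% of all rows called. The Nrf2 interaction was called lower for 5 and higher for 0, beside 1.16% of all rows. The Bach1 interaction was called higher for 3 and lower for 0, beside 2.75%. The part of each mutation apart from its line background was not tested. In Bach1 DKO larvae 1 of the 12 rose and 3 fell, beside 23.4% of all rows called, and in Bach1 DKO crkeap1a/b relative to Bach1 DKO larvae 10 rose and 1 fell, where 5 of 7 globins rose. The heme oxygenase gene hmox1a, the best known target of Bach1 in mammals, was at 7.77 ± 2.77 CPM in WT, 6.46 ± 2.32 CPM in crkeap1a/b, 4.5 ± 1.87 CPM in Bach1 DKO and 115 ± 11.8 CPM in Bach1 DKO crkeap1a/b larvae. Its interaction with the Bach1 line was 4.96 ± 0.46 (adjusted p = 8.49e-09), in the same direction as the globins called there. In Nrf2 KO larvae 1 of the 12 rose and 4 fell relative to WT, beside 15.9% of all rows called, with a median log2 fold change of −0.41. The gene that rose was hmox1a (1.3 ± 0.28, adjusted p = 0.00102), opposite in sign to the called globins. Those that fell, nqo1 (−1.86) with the largest change, had the same sign as the called globins.

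Globins of other tissues were measured beside them, and 3 were tested. Cytoglobin 1 (cygb1) changed by 0.10 ± 0.12 on the log2 scale in Nrf2 KO larvae (adjusted p = 0.655) and rose with injection in the Bach1 line (1.13 ± 0.12, adjusted p = 2.61e-09). It was also called higher in Bach1 DKO than in WT larvae (0.58), opposite in sign to the 7 globins. Myoglobin (mb) changed by 0.13 ± 0.21 in Nrf2 KO larvae (adjusted p = 0.739) and was called higher with injection in the Bach1 line (0.60). Of the 3, 1 was called higher in Bach1 DKO larvae and 2 with injection in the Bach1 line, beside 23.4% and 25.4% of all rows called. The neuroglobin gene ngb was at 4.86 ± 1.26 CPM in WT and at or below 0.454 CPM in the 8 pools of the Nrf2 line, under the detection floor (adjusted p = 0.00773 for Nrf2 KO against WT).

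Genes around the globin clusters were tested for a regional change. Of the 20 tested genes nearest the chromosome 3 cluster, 10 on each side in the RefSeq order, 1 was higher and 2 were lower in Nrf2 KO than in WT larvae, with a median log2 fold change of 0.14, where 5 of the 6 globins of this cluster were lower. Of the 20 nearest the chromosome 12 cluster, 2 were higher and 0 lower. Of all rows, 15.9% were called in this comparison. In Bach1 DKO larvae the chromosome 3 neighbours had 1 gene higher and 3 lower, and with injection in the Bach1 line 4 higher and 2 lower, near the 23.4% and 25.4% of all rows called.

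The rows most like the globins were named by the correlation of log2 CPM with the log2 summed globin level over the 32 libraries. The highest were the row with Entrez ID 100535417 and no symbol used here (r = 0.918), oaz1a (0.917), lrr1 (0.913), tuba8l4 (0.905) and smim29 (0.892). By deviations from the group means, the highest were suclg1 (r = 0.872), spink4 (0.863), uqcrc2a (0.858), ctrl (0.857) and mdh1aa (0.854), so that the rows differed between the measures. Levels of lrr1 were 31.3 ± 1.49 CPM in WT, 73.7 ± 33.1 CPM in crkeap1b, 19.3 ± 2.5 CPM in Bach1 DKO and 3.75 ± 1.6 CPM in Nrf2 KO larvae (SD, n = 4 each). These correlations describe libraries that share groups and scaling.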

How the data were processed

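The deposited table holds raw read counts per gene for 32 libraries, with no normalization. Per the submitters' processing notes and the study's methods, the authors checked reads with FastQC 0.72, trimmed them with cutadapt 1.16, aligned them with STAR 2.7.5b to danRer11 (GRCz11), counted them with featureCounts 1.6.3 against a published zebrafish annotation and tested them with limma 3.40.6. Strand and the handling of reads with several matches are not given in the sources used here.

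Groups were taken from the sample titles, and column names matched these for all 32 libraries, with 0 left over. Symbols came from a RefSeq table (GRCz12tu), which matched 15617 IDs and left 422 unmatched, and 22 IDs were on 2 rows. The 786 rows without an ID held 30.6% to 46.8% of the counts of a library and were left out of library sizes and tests. Analysis used R 4.3.3, edgeR 4.0.16 and limma 3.58.1. Rows were kept by filterByExpr with a minimum count of 10 (14108 rows) and scaled by TMM. All libraries entered 1 linear model with a mean for each of the 8 groups (voom and eBayes; 24 residual and 12.9 prior degrees of freedom). Tests were two-sided, with Benjamini-Hochberg adjustment across the tested rows of each of 11 comparisons, and a row was called at an adjusted p under 0.05. Log2 CPM used a prior count of 2. Sums, ratios and shares are descriptions without a test. The fit was tested on simulated counts before use. Replicate pairs differed beyond sampling noise (chi-square per degree of freedom of 1.74 or more over 48 pairs), so none was counted as a duplicate. Same-numbered pools were not shown to be paired. Detection floors cover counting error only.

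The members and gene lists were chosen with earlier results of these data known. Named genes were all globins with a row, the edited genes and hmox1a, defining red cell genes, of each list at most the 4 called genes with the largest change, and the 5 rows most like the globin sum by either measure. Alternatives were RLE size factors, library totals alone, other row sets, edgeR, DESeq2 1.42.0, quality weights, a replicate block, the compared groups alone, leaving out each pool, and leaving out the 5 libraries that stand apart. The last and the library totals were chosen after the data were seen. A promoter motif search was not run.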

Additional observations from a re-analysis of the deposited data

Results flagged for a closer look

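In 7 of 96 groups tested, 1 pool lay far from the other 3, where chance flags about 1 in 20 groups. In WT larvae hbae3 was at 687 CPM in replicate 3 against 813 to 825 CPM in the others. In crkeap1b larvae hbbe1.2 was at 225 CPM in replicate 4, and in crkeap1a larvae hbbe1.1 was at 193 CPM in replicate 3, both libraries that stand apart from the rest. In crkeap1a/b larvae hbae1.3 was at 141 CPM in replicate 4, without which 0 globins were called in the Bach1 interaction. The gene hbbe2 was at 48.0 CPM in Bach1 DKO replicate 2 and at 30.1 CPM in Nrf2 KO crkeap1a/b replicate 2. The ratio of alpha to beta globins was 1.71 in Bach1 DKO crkeap1a/b replicate 1, the lowest of its group.

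The response to keap1a/b editing differed between the Bach1 line and the WT background by a test of the difference itself for hbbe1.3 (1.43 on the log2 scale), hbae3 (1.33) and hbae1.1 (1.56). The values in each background, and the pools on which these calls depend, are given with that comparison.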

How the results depend on the processing

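Of 847 globin values under 11 settings, 767 kept their direction and their side of the threshold, 13 lost and 61 gained the call, and 6 reversed. With the compared groups alone, the counts of called globins were 5 for Bach1 DKO against WT, 3 for crkeap1a/b against WT, 6 for Bach1 DKO crkeap1a/b against crkeap1a/b, 6 for Nrf2 KO crkeap1a/b against crkeap1a/b, 1 for injection in the Nrf2 line, 5 for the Bach1 interaction and 2 for the Nrf2 interaction. With quality weights they were 4 for Bach1 DKO crkeap1a/b against crkeap1a/b, 5 for the Bach1 and 1 for the Nrf2 interaction. With library totals alone they were 4 for Bach1 DKO crkeap1a/b against crkeap1a/b, and edgeR and DESeq2 each called 2 in crkeap1a larvae. Without the 5 libraries that stand apart they were 5 for Bach1 DKO, 5 for Bach1 DKO crkeap1a/b against crkeap1a/b, 0 for crkeap1a, 4 for crkeap1a/b, 0 for crkeap1b, 6 for the Bach1 interaction, 1 for the Nrf2 interaction and 5 for Nrf2 KO crkeap1a/b against crkeap1a/b. The summed level relative to WT on the log2 scale was 0.28 for Bach1 DKO crkeap1a/b with library totals alone (0.07 before) and −0.01 for crkeap1b without the 5 libraries. Calls over all rows also moved under several of these settings, in both directions, as given below. With the compared groups alone they went from 388 to 1010 for the Bach1 interaction and from 1865 to 420 for crkeap1a larvae. The cause of these changes was not tested.

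Reversed values without the 5 libraries were, in crkeap1b larvae, alas1 −0.03, fth1a −0.03, hbae3 −0.21, hbbe1.1 −0.73 and sox6 0.08, and in crkeap1a larvae hbbe1.2 −0.08. In crkeap1a/b larvae hbbe1.1 was 0.05 with quality weights and 0.05 with library totals alone, where hbbe2 was 0.03, and hmox1a was −0.08 in crkeap1a larvae. Near 0, slc4a1a in crkeap1a/b larvae was −0.01 by edgeR and 0.00 by DESeq2, and klf1 with injection in the Nrf2 line was 0.00 by edgeR. With library totals alone the median of all rows moved to −0.44 in crkeap1b, −0.25 in crkeap1a and 0.13 in Bach1 DKO larvae, and the globin medians were 0.70 in crkeap1b and 0.15 in crkeap1a larvae.

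Leaving out each pool gave counts of 2 to 3 for Bach1 DKO, 2 to 5 for injection in the Bach1 line, 1 to 2 for Bach1 DKO crkeap1a/b against crkeap1a/b, 0 to 2 for crkeap1a, 4 to 6 for crkeap1b, 0 to 3 for the Bach1 interaction, 3 to 4 for Nrf2 KO crkeap1a/b against crkeap1a/b, 5 for Nrf2 KO and 0 for the others. Log2 values that reversed ranged from −0.13 to 0.22 for hbae1.3 with injection in the Nrf2 line, −0.31 to 0.24 for hbbe1.1 in crkeap1a/b, −0.14 to 0.41 for hbbe1.1 in Nrf2 KO, −0.22 to 0.05 for hbbe2 in crkeap1a/b, −0.28 to 0.04 for hbbe2 in Nrf2 KO crkeap1a/b against crkeap1a/b, −0.02 to 0.35 for hmox1a in crkeap1a, −0.72 to 0.08 for klf1 in the Nrf2 interaction, −0.16 to 0.55 for klf1 with injection in the Nrf2 line and −0.11 to 0.19 for slc4a1a in crkeap1a/b larvae. Sums relative to WT ranged from −1.94 to −1.64 for Nrf2 KO, −0.85 to −0.69 for Bach1 DKO and 0.98 to 1.49 for crkeap1b. With the replicate block the Bach1 DKO count was 2, and 76 of 77 globin values were unaltered in direction and call. No pairing was shown: the nearest case, injection in the Bach1 line, had same-number correlations with a mean of 0.128 and a lowest value of 0.075.

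Counts of called rows over the whole table moved by most rows for the single crispants, from 1865 to 313 in crkeap1a and from 2548 to 67 in crkeap1b larvae without the 5 libraries, and to 420 and 472 with the compared groups alone. The crkeap1a count was 1231 with quality weights and the crkeap1b count 5115 with library totals alone. The crkeap1a/b count of 747 was 1598 without the 5 libraries. With the compared groups alone, quality weights or without the 5 libraries, the Bach1 interaction went from 388 to 1010, 863 and 1141, the Nrf2 interaction from 164 to 394, 301 and 528, and injection in the Nrf2 line from 116 to 727, 594 and 596 (237 by DESeq2). With library totals alone the share of called rows that were higher moved by over 10 percentage points in 9 of 11 comparisons, most for crkeap1b (from 54.5% to 9.7%) and crkeap1a larvae (47.2% to 16.6%). Depth limits hbbe1.2 in Nrf2 KO larvae, which rested on 9 to 50 counts.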
